A study of Mus musculus with 24 samples.

Results

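The *Trappc9–Kcnk9* imprinted domain on mouse chromosome 15 was examined in total RNA of whole embryos that did or did not have a wild-type *Zfp57* allele. The genes were the rows of the gene table with the symbol *Kcnk9*, *Trappc9*, *Chrac1*, *Ago2* or *Ptk2*, which is 5 of the 34745 genes in the table. All 5 passed edgeR's filter on low counts, as did 16026 genes of the table.

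The domain is organized around *Peg13*, a noncoding RNA gene that lies inside *Trappc9*. The *Peg13* promoter carries a germline methylation mark on the maternal chromosome, so that *Peg13* is transcribed from the paternal chromosome. In the brain *Kcnk9* is transcribed mainly from the maternal chromosome, and its neighbours *Trappc9*, *Chrac1* and *Ago2* show a milder maternal bias there. ZFP57 is a KRAB zinc finger protein that maintains the methylation of many imprinting control regions in the early embryo.

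Expression was measured by RNA-seq in 6 M-Z+ and 6 M-Z- embryos, each sequenced as its own library. All 12 were E13.5 embryos of the 129/DBA hybrid strain. M-Z+ embryos are *Zfp57*-/+, with no maternal *Zfp57* and a wild-type allele from the father, and M-Z- embryos are *Zfp57*-/- and lack both maternal and zygotic *Zfp57*. Both groups therefore lack the maternal gene product, and the comparison addresses what the zygotic allele adds when maternal *Zfp57* is absent. The labels number the embryos as replicates and do not give sex or litter, so p-values measure the spread between these embryos. The series lists 24 samples, and the other 12, with whole-genome bisulfite sequencing, are not analysed here. The counts are totals over both alleles, so the allele that was transcribed cannot be read from them. In RNA of a whole embryo, fewer cells that express a gene and less RNA per cell cannot be told apart.

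The depth of the M-Z+ libraries was 12347383 to 19216288 counts on genes (median 14142528), and that of the M-Z- libraries 12005145 to 14617373 (median 13356726). Counts were normalized with the TMM method and are given as CPM, counts scaled to a common normalized library size. TPM also divides by a length per gene that the deposited FPKM values imply. It is used where levels of different genes are set side by side. For some genes the implied length exceeds the whole span of the gene, so the order of genes in TPM depends on this length. The label of total embryo was checked against markers of several tissues. Transcripts of neurons (10 genes, most abundant *Tubb3*) summed to 2072 ± 197 TPM in M-Z+ and 1869 ± 68.7 TPM in M-Z- embryos (SD, n = 6 per group). Neural progenitor genes summed to 636 ± 60.0 and 566 ± 69.1 TPM (5 genes, most abundant *Fabp7*), and genes of the granule cell lineage to 89.1 ± 10.02 and 83.3 ± 11.2 TPM (4 genes, most abundant *Zic1*). Fetal hepatocyte genes (*Alb* and 6 others) summed to 6172 and 5319 TPM and erythroid genes (*Hbb-y* and 6 others) to 32075 and 36996 TPM. Heart muscle, skeletal muscle and cartilage genes were present as well, with sums of 274, 1723 and 828 TPM in M-Z+ and 296, 1795 and 927 TPM in M-Z- embryos. Of 4 placental markers, *Tpbpa*, *Prl3d1* and *Ctsq* had no count in any library, and none of the 4 was tested. Of these marker genes 47 were tested, none was called changed by edgeR or DESeq2, and 7 had an unadjusted edgeR p below 0.05, against 6.7% of all tested genes. These were the neuron genes *Stmn2*, *Tubb3* and *Ina*, the progenitor genes *Hes5* and *Fabp7*, *Barhl1* of the granule lineage and *Nppa* of heart muscle, all with a negative log2 fold change. The median log2 fold change was −0.14 for the neuron genes, −0.14 for progenitors, −0.13 for the granule lineage, −0.25 for hepatocytes, −0.16 for erythroid genes, 0.21 for heart muscle, −0.02 for skeletal muscle and 0.13 for cartilage. For erythroid and skeletal muscle genes the difference of the sums and the median differed in sign.

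A few libraries stood apart in how counts depended on the implied length of genes. Within each library log2 CPM was regressed on log2 implied length over genes. This length slope was 0.67 in M-Z+ replicate 6, 0.66 in M-Z- replicate 5 and 0.67 in M-Z- replicate 6. It was lowest in M-Z+ replicate 4, at 0.44, and had a median of 0.52 in M-Z+ and 0.56 in M-Z- embryos. The levels of *Ago2* in these 4 libraries are given below beside their slopes.

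*Zfp57* itself, on chromosome 17 from 37001163 to 37010635 (GRCm38/mm10), ranged from 19.1 to 40.8 CPM in M-Z+ embryos (median 23.7) and from 17.8 to 27.8 CPM in M-Z- embryos (median 26.5). The groups overlapped, but M-Z+ replicates 4 and 6 (40.8 and 33.2 CPM) were above every M-Z- embryo. M-Z- replicate 1 (17.8 CPM) was below every M-Z+ embryo. M-Z- over M-Z+ embryos gave a log2 fold change of −0.15 (edgeR, standard error 0.18, adjusted p = 0.828), with an exact permutation p of 0.532 for the means. Without M-Z+ replicate 4, the highest library, it was 0.0042. The table gives 1 count for the gene, and the sources used here do not say which part is deleted in the mutant, so the genotype labels are not checked by this value.

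M-Z- embryos were compared with M-Z+ embryos by edgeR's quasi-likelihood test, and a gene was called at an adjusted p below 0.05 with a log2 fold change beyond 0.5. None of the 5 domain genes was called, against 13 of all 16026 tested genes (0.0811%). Mean levels of *Kcnk9*, *Trappc9* and *Chrac1* were lower in M-Z- embryos and those of *Ago2* and *Ptk2* were higher, but for each of the 5 the embryos of the groups overlapped. The 5 log2 fold changes ran from −0.84 for *Kcnk9* to 0.29 for *Ago2*, with a median of −0.21, where the median over all tested genes was −0.0072. No domain gene separated the groups, as 92 of the tested genes did (0.574%) by having all 6 embryos of one group above all 6 of the other. At an unadjusted edgeR p below 0.05, 1 of the 5 (*Chrac1*) passed, against 1074 of all tested genes (6.7%). With so few genes, these shares do not set the domain apart from the rest of the table. DESeq2 called none of the 5 either. *Peg13*, which is not one of the 5, showed the clearest difference in the region: 5 of 6 M-Z- embryos had more *Peg13* than any M-Z+ embryo.

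**Figure D1:**
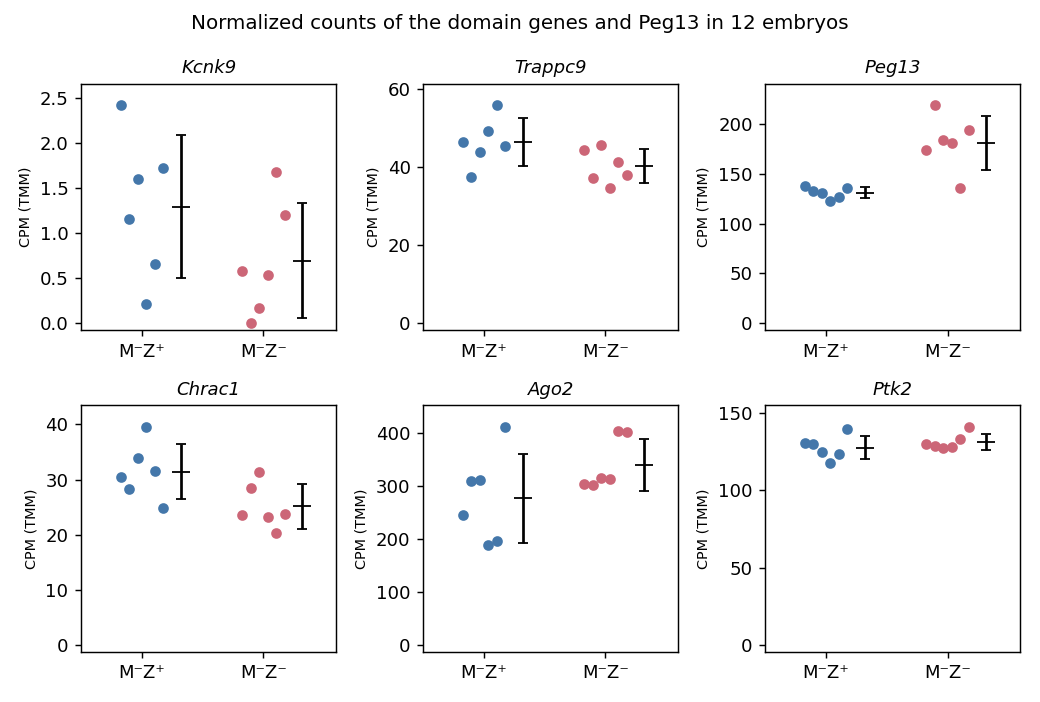
TMM-normalized CPM of the 5 domain genes and *Peg13* in each of 12 embryos (points, 6 per group), with the group mean and SD (bar) beside them; each y axis is linear and includes 0. Of these 6 genes, *Peg13* comes closest to separating the groups, with 1 M-Z- embryo at the level of the M-Z+ embryos.

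*Peg13* (ENSMUSG00000106847) occupies positions 72805600 to 72810324 and lies wholly within *Trappc9*. Its counts were high, from 1703 to 2597 in M-Z+ and from 1942 to 2932 in M-Z- libraries. M-Z+ embryos had 123 CPM at the lowest, 132 at the median and 137 at the highest. M-Z- embryos had 136, 182 and 218 CPM. The M-Z+ embryos were thus very alike, with a coefficient of variation of 4.08%, whereas the M-Z- embryos varied more (14.9%). Only M-Z- replicate 5, the lowest of its group, fell within the M-Z+ range.

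The group means of *Peg13* were 131 ± 5.33 and 181 ± 26.9 CPM (SD, n = 6), a 1.38-fold difference with a 95% interval from 1.20 to 1.59. On the log2 scale this was 0.47 (standard error 0.093), just under the limit of 0.5, and edgeR's adjusted p was 0.135, so *Peg13* was not called. The exact permutation test of the 2 group means (two-sided) gave p = 0.00433 for this gene alone, where the smallest p that 6 embryos against 6 allow is 0.00216. Leaving out M-Z- replicate 5 gave a log2 fold change of 0.53, and *Peg13* was then called (edgeR adjusted p = 0.00644), so this 1 library decided the call. Without the 3 steep-slope libraries, of which it is 1, the value was also 0.53 (edgeR adjusted p = 0.0171). With any other library left out, edgeR adjusted p values ran from 0.157 to 0.340. DESeq2 gave 0.47 with an adjusted p of 0.00227, which passes when no fold limit is set, as for 41 of all tested genes (0.256%). That setting was chosen after the data were seen.

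*Kcnk9* (ENSMUSG00000036760), which encodes an acid-sensitive K2P potassium channel of neurons, lies at positions 72512119 to 72546279. It was the least abundant of the domain genes, and its counts were low in every library. M-Z+ replicates 1 to 6 had 30, 15, 21, 4, 10 and 33 counts, 113 in all. M-Z- replicates 1 to 6 had 7, 0, 2, 7, 24 and 17 counts, 57 in all. Most M-Z- embryos were low, but M-Z- replicates 5 and 6 reached the level of the M-Z+ embryos, and M-Z+ replicate 4 was as low as the M-Z- group.

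In CPM, *Kcnk9* had a lowest value of 0.216, a median of 1.38 and a highest value of 2.42 in M-Z+ embryos, against 0, 0.557 and 1.68 in M-Z- embryos. The count of 0 in M-Z- replicate 2 allows up to 3 counts, or 0.223 CPM, which is above the value of M-Z+ replicate 4. The summed counts gave M-Z- embryos 0.585 times the M-Z+ level, with an exact binomial 95% interval from 0.418 to 0.811. That interval covers counting error only, and does not include the spread between embryos. The group means were 1.29 ± 0.790 and 0.694 ± 0.637 CPM (SD, n = 6), and the exact permutation test gave p = 0.165. Between embryos the biological coefficient of variation of *Kcnk9* was 73.3%, and its dispersion was at percentile 99.5 of all tested genes.

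For *Kcnk9* the fitted log2 fold change was −0.84 (edgeR, standard error 0.64, unadjusted p = 0.211, adjusted p = 0.759), with a 95% interval from −2.21 to 0.53. At this depth and spread the interval reaches from 0.217 to 1.45 times the M-Z+ level, and no difference was detected. Leaving out M-Z- replicate 5 gave −1.33, whereas the value was −0.58 if M-Z+ replicate 1 was left out, and also −0.58 without the M-Z- library that had no count. When the length slope entered the fit as a covariate it was −1.42 (standard error 0.61, edgeR unadjusted p = 0.0354, adjusted p = 0.468), and with 2 surrogate variables −1.21 (edgeR adjusted p = 0.429). The neuron markers were 10 of 10 tested, none was at 0, and their sum was 1795 to 2340 TPM in M-Z+ and 1805 to 1988 TPM in M-Z- embryos. In M-Z- replicate 2, where *Kcnk9* had no count, the neuron sum was 1819 TPM, and in M-Z- replicate 5, with 24 counts, it was 1988 TPM. Other libraries ran the opposite way. The neuron sum was lowest in M-Z+ replicate 3, at 1795 TPM with 21 *Kcnk9* counts, and highest in M-Z+ replicate 5, at 2340 TPM with 10 counts. The part of neuron content in the *Kcnk9* counts was not tested. The gene model in the table is also shorter than the RefSeq gene. The RefSeq gene reaches 10246 bases further at the low end and 2335 at the high end. Reads from those ends may not have been counted.

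*Trappc9* (ENSMUSG00000047921) encodes a subunit of the TRAPPII complex, which tethers vesicles at the Golgi, and spans 471584 bases from 72589621 to 73061204. M-Z+ embryos ranged from 37.3 to 55.7 CPM with a median of 45.9, and M-Z- embryos from 34.7 to 45.7 CPM with a median of 39.7. All 6 M-Z- embryos were below the M-Z+ median, and 2 of them, replicates 2 and 4, were below the lowest M-Z+ embryo, replicate 2. The ranges otherwise overlapped.

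The means of *Trappc9* were 46.3 ± 6.07 and 40.2 ± 4.31 CPM (SD, n = 6; exact permutation p = 0.0693). The fitted log2 fold change was −0.21 (standard error 0.10, 95% interval −0.42 to 0.01, edgeR adjusted p = 0.749), so a fall to less than 0.747 of the M-Z+ level lies outside the interval. With 2 surrogate variables it was −0.14. Within each library, the log2 ratio of *Peg13* to *Trappc9* TPM was 1.94 ± 0.23 in M-Z+ embryos (1.61 to 2.26) and 2.59 ± 0.31 in M-Z- embryos (2.15 to 2.99). This ratio was not tested. The treatment of strand in the counting is not given in the sources used here, so reads of *Trappc9* transcripts over the 4725 bases of *Peg13* cannot be told apart from *Peg13* reads.

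*Chrac1* (ENSMUSG00000068391), from 73090392 to 73097554, encodes a histone-fold protein that pairs with POLE3 in the CHRAC chromatin remodelling complex. M-Z+ embryos had 24.8 CPM at the lowest, 31.1 at the median and 39.5 at the highest. M-Z- embryos had 20.4, 23.6 and 31.4 CPM. Replicates 1, 4, 5 and 6 of the M-Z- group were below every M-Z+ embryo, while replicates 2 and 3 lay among the M-Z+ embryos. *Chrac1* was the domain gene with the smallest unadjusted p.

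The means of *Chrac1* were 31.4 ± 4.99 and 25.1 ± 4.03 CPM (SD, n = 6; exact permutation p = 0.0303, for this gene alone). The log2 fold change was −0.32 (edgeR, standard error 0.13, 95% interval −0.60 to −0.05), with an unadjusted p of 0.0223 and an adjusted p of 0.744, so *Chrac1* was not called. With the length slope as a covariate the value was −0.19. The highest and lowest M-Z+ embryos for *Chrac1*, replicates 4 and 6, were those with the lowest and highest length slope in that group.

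*Ago2* (ENSMUSG00000036698), from 73095844 to 73184840, encodes the Argonaute protein that binds small RNAs and can cut their targets. M-Z+ embryos had 189 CPM at the lowest, 278 at the median and 412 at the highest, and M-Z- embryos had 302, 314 and 404 CPM. All 6 M-Z- embryos were above the M-Z+ median, but the highest value of all belonged to a M-Z+ embryo, replicate 6. The 3 libraries with the steepest length slope, M-Z+ replicate 6 and M-Z- replicates 5 and 6, had 412, 404 and 402 CPM of *Ago2*, and the library with the flattest slope, M-Z+ replicate 4, had 189. M-Z+ replicates 3 and 5, with similar slopes of 0.53 and 0.52, had 311 and 197 CPM. The other 4 M-Z- embryos lay close together, from 302 to 315 CPM.

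The means of *Ago2* were 278 ± 84.2 and 340.1 ± 48.8 CPM (SD, n = 6; exact permutation p = 0.165). The log2 fold change was 0.29 (standard error 0.17, 95% interval −0.08 to 0.67, edgeR adjusted p = 0.749). With the length slope as a covariate it was 0.11 and with 2 surrogate variables 0.16. Without the 3 steep-slope libraries the log2 fold change was again 0.29 (edgeR adjusted p = 0.637). The implied length of *Ago2*, 13705 bases, compares with a median implied length of 5124 bases over the tested genes. The part of length in the fold change was not tested.

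*Chrac1* and *Ago2* overlap by 1711 bases in the table, from 73095844 to 73097554. In RefSeq both genes stop short of this stretch and do not overlap. Reads from the shared bases could have been counted for either gene or for neither. The log2 ratio of *Ago2* to *Chrac1* TPM within a library was 1.01 ± 0.63 in M-Z+ and 1.67 ± 0.38 in M-Z- embryos (SD, n = 6), and it ranged from 0.16 in M-Z+ replicate 4 to 2.21 in M-Z- replicate 5. The group ranges, 0.16 to 1.95 and 1.23 to 2.21, overlapped in part. M-Z+ replicates 1, 3, 4 and 5 lay below every M-Z- embryo. This ratio was not tested.

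*Ptk2* (ENSMUSG00000022607), from 73205105 to 73423191, encodes focal adhesion kinase, which relays signals from integrins. It was the steadiest gene of the domain. M-Z+ embryos had 118 CPM at the lowest, 127 at the median and 139 at the highest, and M-Z- embryos had 128, 129 and 141 CPM. The groups overlapped. All 6 M-Z- embryos were above the M-Z+ median, and replicate 6 was just above the highest M-Z+ embryo. The means were 128 ± 7.39 and 131 ± 5.08 CPM (SD, n = 6; exact permutation p = 0.327).

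For *Ptk2* the log2 fold change was 0.04 (standard error 0.058, 95% interval −0.08 to 0.17, edgeR adjusted p = 0.850). It was −0.0039 when the length slope was a covariate. The interval leaves room for levels from 0.944 to 1.12 times the M-Z+ level, the narrowest of the 5 genes. The dispersion of *Ptk2* was at percentile 1.3 of all tested genes, with a biological coefficient of variation of 9.4%. For comparison, the imprinted genes *Plagl1* and *Dlk1* in the same fit had log2 fold changes of 1.27 (standard error 0.12, edgeR adjusted p = 2.12e-04) and −2.42 (standard error 0.16, edgeR adjusted p = 5.44e-06).

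The table lists 16 genes from *Col22a1* to *Adgrb1*, of which 12 were tested and none was called. An unadjusted edgeR p below 0.05 was found for *Peg13* and *Chrac1* only. The median log2 fold change of these 12 was −0.00063, with *Peg13* highest and *Kcnk9* lowest. Outside the domain, on the *Kcnk9* side, *Col22a1* (a collagen gene) had a log2 fold change of −0.0050. On the *Ptk2* side *Dennd3*, *Slc45a4*, *Gpr20*, *Ptp4a3* and *Adgrb1* had 0.04, 0.01, 0.0037, −0.18 and −0.07. The sign of each of these 6 neighbours changed in at least 1 other fit.

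**Figure D2:**
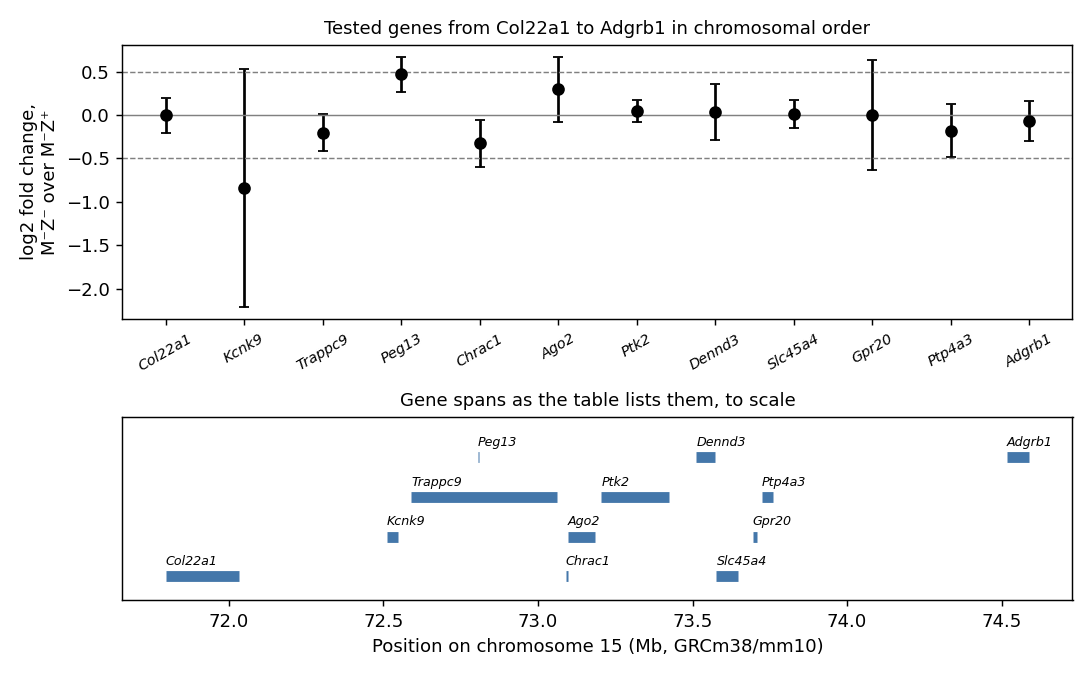
Top, log2 fold change of M-Z- over M-Z+ embryos with its 95% interval for the 12 tested genes from *Col22a1* to *Adgrb1*, in chromosomal order (dashed lines, the limit of 0.5 in each direction); bottom, the spans of the genes on chromosome 15 in Mb. The intervals of *Peg13* and *Chrac1* exclude 0, and that of *Kcnk9* is the widest.

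Per implied length, the means of the genes had the same order in both groups. In M-Z+ embryos *Peg13* had 97.1 ± 8.58 TPM, *Ptk2* 87.9 ± 9.85, *Ago2* 71.9 ± 25.9, *Chrac1* 34.1 ± 3.82, *Trappc9* 25.4 ± 2.76 and *Kcnk9* 3.80 ± 2.32 TPM (SD, n = 6). In M-Z- embryos these levels were 137 ± 19.4, 92.5 ± 6.61, 89.3 ± 15.9, 28.04 ± 4.05, 22.6 ± 2.54 and 2.10 ± 1.98 TPM. Within a library, *Peg13* was above *Ptk2* in 6 of 6 embryos of each group, and above *Ago2* in 5 of 6. *Ptk2* was above *Ago2* in 5 of 6 M-Z+ and 4 of 6 M-Z- embryos, so the order of these neighbours was not fixed. *Chrac1* was above *Trappc9* in 6 of 6 M-Z+ and 5 of 6 M-Z- embryos, and *Kcnk9* was the lowest of the 6 genes in every library. The order depends on the implied lengths. In CPM *Ago2* had the highest means, 278 in M-Z+ and 340 in M-Z- embryos, against 131 and 181 for *Peg13* and 128 and 131 for *Ptk2*. *Trappc9*, at 46.3 and 40.2 CPM, was then above *Chrac1*, at 31.4 and 25.1.

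The partners of each protein were then described, from lists chosen by function. DESeq2 called no gene of these lists, and the genes with an unadjusted edgeR p below 0.05 were *Chrac1* and *Vcl* only. Of 15 TRAPP subunit genes 14 were tested and none was called, 5 with a positive and 9 with a negative log2 fold change, and the median was −0.07 (0.02, with 8 positive, when the length slope was a covariate). They ran from −0.22 for *Trappc4* to 0.21 for *Trappc8*, and *Trappc9* was near the low end. With the length slope as a covariate *Trappc4* was at −0.06, *Trappc8* at 0.07 and *Trappc9* at −0.18. *Trappc10*, which encodes another subunit particular to TRAPPII, had 56.0 ± 8.52 TPM in M-Z+ and 62.7 ± 4.94 TPM in M-Z- embryos, more than *Trappc9* in both groups. *Trappc4*, of the core shared by TRAPP complexes, had 196 ± 22.8 and 173 ± 19.9 TPM.

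Around *Ago2*, all 13 genes of the microRNA machinery were tested and none was called. Their median log2 fold change was 0.14, and 11 of 13 were positive, where 48.3% of all tested genes were. With the length slope as a covariate the median was −0.02 and 5 of 13 were positive. Without the 3 libraries of steepest slope, a setting chosen after the data were seen, it was 0.07 with 9 of 13 positive. With 2 surrogate variables it was 0.04 with 11 of 13 positive. The lowest was *Prkra*, a Dicer partner, at −0.10, and the highest was *Tnrc6b*, a GW-repeat protein gene that acts with Argonautes, at 0.31. *Tnrc6b* had 288, 282 and 278 CPM in those 3 libraries (M-Z+ replicate 6 and M-Z- replicates 5 and 6) and at most 186 CPM in any other, and it was at −0.0084 with the slope in the fit but at 0.23 without those 3 libraries. The 4 Argonaute genes split by level, with *Ago1* at 75.1 ± 17.2 TPM and *Ago2* at 71.9 ± 25.9 TPM in M-Z+ embryos, and *Ago3* and *Ago4* at 7.89 ± 5.18 and 9.03 ± 2.29 TPM. In M-Z- embryos *Ago1* had 84.7 ± 12.9 TPM. The log2 fold changes of *Ago1*, *Ago3* and *Ago4* were 0.14, 0.30 and 0.05. Without the 3 steep libraries they were 0.10, 0.09 and −0.07, and that of *Ago2* was 0.29 as before. With the length slope in the fit *Ago1* was at 0.0080, *Ago3* at −0.18 and *Ago4* at −0.14, so the directions of *Ago3* and *Ago4* were not kept. *Ago3* had 81.2, 75.2 and 81.7 CPM in the 3 steep libraries, while the remaining libraries overlapped, at 20.3 to 44.9 CPM for M-Z+ and 25.4 to 36.0 CPM for M-Z-.

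The 7 genes of the CHRAC complex and of the DNA polymerase epsilon, which has POLE3 in common with it, were tested and none was called. *Chrac1* was the lowest of the 7 and *Pole*, the catalytic polymerase subunit, the highest at 0.20, with a median of 0.13 (−0.02 when the length slope was a covariate). The histone-fold genes *Pole3* and *Pole4* were at −0.15 and −0.14, while the remodelling subunits *Smarca5* and *Baz1a* were both at 0.17. This contrast was smaller with the slope in the fit, where *Pole3*, *Pole4* and *Baz1a* were each at −0.02 and *Pole* was at 0.06. *Pole3*, the partner of *Chrac1*, was more abundant, with 132 ± 9.97 TPM in M-Z+ and 123 ± 12.8 TPM in M-Z- embryos.

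For *Ptk2*, 18 genes of focal adhesion signalling were listed, on 19 rows since *Tgfb1i1* stands on 2 rows of the table, and all 19 were tested with none called. The median log2 fold change was 0.08, with 11 positive and 8 negative. It was 0.04 with 12 positive when the length slope was a covariate, and 0.03 with 10 positive without the 3 steep-slope libraries. *Ptk2b*, the close relative of *Ptk2*, was the lowest at −0.26 and was rare, with 2.29 ± 0.27 TPM in M-Z+ and 1.95 ± 0.34 TPM in M-Z- embryos. The highest was a low-count row of *Tgfb1i1* at 0.40, with 1 to 129 counts per library, and its value was not stable, at −0.12 without the 3 steep-slope libraries and 0.99 with the length slope as a covariate. *Vcl*, which encodes vinculin, was the 1 row with an unadjusted edgeR p below 0.05 (0.24, unadjusted p = 0.0245, adjusted p = 0.744), and *Itgb1*, the most abundant integrin gene of the list, had 363 ± 55.4 and 395 ± 9.76 TPM.

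Of 14 genes of the K2P channel family 8 were tested, *Kcnk9* among them, and none was called, 4 with a positive and 4 with a negative log2 fold change and a median of −0.02. *Kcnk9* was the lowest and *Kcnk10* the highest at 0.15, and *Kcnk10* was at −0.04 with the length slope as a covariate. In M-Z+ embryos *Kcnk1* was the most abundant in TPM, with 17.5 ± 1.72. In CPM *Kcnk2* was above *Kcnk1* in these embryos, with means of 18.7 and 11.6. *Kcnk3*, the gene closest to *Kcnk9* in function as an acid-sensitive channel, had 4.49 ± 0.85 TPM in M-Z+ and 4.67 ± 0.61 TPM in M-Z- embryos. In TPM *Kcnk3* was above *Kcnk9* in 4 of 6 M-Z+ and 6 of 6 M-Z- libraries, and it varied less between embryos. This order depends on the implied lengths, 4318 bases for *Kcnk3* and 1209 for *Kcnk9*. In counts *Kcnk3* (61 to 113 per library) was above *Kcnk9* (0 to 33) in every library.

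How the domain genes varied among embryos of the same group was described with the deviations of log2 CPM from the group means over the 12 libraries. *Ago2* and *Ptk2* varied together (Pearson r = 0.84), and *Kcnk9* followed both (0.64 with *Ago2*, 0.67 with *Ptk2*). *Chrac1* ran against these 3 genes, with r = −0.77 to *Kcnk9*, −0.74 to *Ptk2* and −0.68 to *Ago2*. *Trappc9* was only loosely related to the others, from −0.46 with *Ago2* to 0.30 with *Chrac1*, and its r to *Peg13* was −0.30. The points share libraries and their length slopes, and these values are descriptions over 12 libraries.

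Among the 16025 other tested genes, those whose deviations were most like *Ago2* were *Btbd7*, *Sesn3* and *Usp9x* (each r = 0.985, Spearman's rho 0.930, 0.867 and 0.846). *Ptk2* was followed most closely by *Ppm1l* (r = 0.959, rho = 0.874), *Slc38a1* (0.957, 0.867) and *Zfp536* (0.954, 0.839). For *Chrac1* they were *Tmem143* (0.946, 0.895), *Cryba4* (0.938, 0.902) and *Cpn2* (0.937, 0.895). *Trappc9* was most like *Inpp5d* (0.942, 0.979), *Plekhm1* (0.921, 0.888) and *Grina* (0.885, 0.895). *Kcnk9* was most like *Gk5* (0.908, 0.937), *Syt1* (0.870, 0.916) and *Scn7a* (0.863, 0.818). *Syt1*, a calcium sensor of synaptic vesicles, is also one of the 10 neuron markers. The correlations of the other neuron markers with *Kcnk9* are not given here. All the most similar genes named above were picked as the highest of a large search over the same 12 libraries.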

How the data were processed

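The authors deposited raw counts per gene and FPKM values made from them, which came back from the counts to within 0.1% above 0.01 FPKM. The submitters' processing notes name the mm10 build and HISAT2 2.0.4. How reads were counted, whether by strand and on which annotation, was not stated in what was used here. Of 25707 symbols also in RefSeq, 99.7% had a table position overlapping the GRCm38 one. FPKM gave an implied length for each gene, from which TPM and the length slopes were computed. How these lengths were made is not known. For some genes they exceeded the span of the gene. *Dlk1*, from 109452823 to 109463336, had an implied length of 16789 bases, and *Tarbp2*, from 102518192 to 102523676, one of 10311 bases.

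The main test was that of edgeR 4.0.16 in R 4.3.3 (TMM, filterByExpr, glmQLFit with a prior count of 0.125, glmQLFTest, no covariate), Benjamini–Hochberg adjustment over all tested genes, DESeq2 1.42.0 and sva 3.50.0. The fits were tested on simulated counts. Exact permutation tests were two-sided over all divisions of 12 libraries into 6 and 6. Embryos were grouped by the labels, and libraries of one group all differed beyond counting noise. The domain genes and lists were chosen with earlier results of these data known. Named were *Zfp57*, the domain genes, *Peg13*, the called, highest and lowest genes of each list and of the region, and the 3 genes most like each domain gene. Other partners were named after their values were seen. Alternatives were DESeq2, RLE size factors, no filter, a mean of at least 50 counts, a replicate block, the gene length slope, 2 surrogate variables, each library left out, unadjusted p and no fold limit, and, added after the data were seen, the 3 libraries of steepest length slope left out and DESeq2 without the fold limit for *Peg13*. Floors are 3 counts and, like count intervals, cover counting error only.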

Additional observations from a re-analysis of the deposited data

How the results depend on the processing

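None of the 5 domain genes was called at the adjusted p in any fit, by edgeR or DESeq2. At the unadjusted p with the fold limit of 0.5, 0 passed in the main comparison and 1 (*Kcnk9*) with the gene length slope. At the unadjusted p without the limit, *Chrac1* passed in the main comparison, but neither without M-Z+ replicate 4 nor with the gene length slope, and *Trappc9* and *Ago2* also passed with the replicate block and in some fits with 1 library left out. The number of all tested genes called was 13 and moved to 37 with DESeq2, 21 with the replicate block, 23 with the gene length slope, 37 with 2 surrogate variables, and at the unadjusted p to 247. It was 11 to 15 with 1 library left out and 16 without the 3 steep-slope libraries, a setting chosen after the data were seen, in which *Tgfb1i1* reversed to −0.12 and *Kcnk9* was not tested. The directions of *Kcnk9*, *Trappc9*, *Chrac1* and *Ago2* were kept in every fit. *Ptk2* reversed to −0.0039 with the gene length slope, as did *Tnrc6b* (−0.0084), *Kcnk10* (−0.043), *Ago3* (−0.18), *Ago4* (−0.14), *Baz1a* (−0.023), *Dennd3* (−0.030) and *Ptp4a3* (0.0087). With 2 surrogate variables *Ago4* (−0.058), *Dennd3* (−0.022) and *Slc45a4* (−0.00082) reversed, without the 3 steep-slope libraries *Ago4* (−0.073), with the replicate block *Gpr20* (−0.029) and with no filter *Gpr20* (−0.00021). With 1 library left out the sign also varied for *Ago4* (−0.041 to 0.13), *Col22a1* (−0.050 to 0.044), *Dennd3* (−0.076 to 0.079), *Slc45a4* (−0.020 to 0.041), *Gpr20* (−0.16 to 0.12) and *Adgrb1* (−0.13 to 0.0054), and *Zfp57* ranged from −0.24 to 0.0042, the latter without M-Z+ replicate 4. The cause was not tested. With 1 library left out, the log2 fold changes ranged from −1.33 to −0.58 for *Kcnk9*, −0.27 to −0.15 for *Trappc9*, −0.40 to −0.25 for *Chrac1*, 0.20 to 0.43 for *Ago2*, 0.01 to 0.06 for *Ptk2* and 0.40 to 0.53 for *Peg13*. Same-numbered embryos did not vary together throughout (r from −0.04 to 0.77 over 8013 genes), so the numbers are not taken to pair them. With the replicate block the values were −0.87 for *Kcnk9*, −0.20 for *Trappc9*, −0.32 for *Chrac1*, 0.33 for *Ago2*, 0.04 for *Ptk2* and 0.45 for *Peg13*, none called. *Kcnk9* has too few counts for the filter of at least 50. The few counts of *Kcnk9* limit its precision, beside the spread between embryos.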
